A study of Mus musculus with 18 samples.

Results

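Ago2 peaks that carry a seed match to miR-194 were examined in mouse colonic epithelium with and without oncogenic K-Ras. A peak was taken when the authors' annotation listed a miR-194 name among its 8-mer, 7m8 or 7A1 seed matches, which gave 406 of 5554 merged peaks. Of these, 337 had an entry for miR-194-5p, 75 had an entry for the seed family of miR-194-2-3p, and 6 had both. The 406 peaks carried 371 gene labels, and 33 labels held at least 2 of them, so peaks of a shared gene are not independent. A further 93 peaks had only a 6-mer match to miR-194-5p and were left out.

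The libraries come from HEAP, a form of CLIP-seq in which Ago2 fused to a Halo tag is captured from UV-crosslinked tissue and the bound RNA is sequenced. The G12D group was Halo-Ago2/+; Fabp-Cre/+; K-Ras-G12D/+ and the WT group Halo-Ago2/+; Fabp-Cre/+ with wild-type K-Ras, both C57BL/6 mice of 8-12 weeks whose distal colon was scraped for epithelium. Each group had 3 pulldown mRNA libraries and 3 miRNA libraries. All mice of both groups carried 1 Halo-Ago2 allele and the Fabp-driven Cre, so Cre acts where that promoter is active, and no library came from mice without them. The labels number the libraries but do not tie each to its own mouse, so p-values measure the spread between libraries. Another 6 libraries, the input controls, were not analysed here, and a change in a peak therefore cannot be told apart from a change in the level of its transcript. Likewise, in tissue a change in the number of cells of a type cannot be told apart from a change of RNA per cell.

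A miRNA guides Argonaute to transcripts that pair with its seed, the bases near its 5′ end, and the bound transcripts are repressed or degraded, most often through sites in the 3' UTR. The miR-194 hairpins lie beside those of miR-192 and miR-215, and these miRNAs are known for their high levels in intestinal epithelium. In the usual naming, an 8-mer site pairs with bases 2 to 8 of the miRNA and has an A opposite base 1, a 7m8 site has the pairing alone, and a 7A1 site pairs with bases 2 to 7 and has the A.

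The mature sequences are shown because they define which matches were counted. Capitals mark the seed, bases 2 to 8 from the 5′ end, and the sequences are those of RefSeq on GRCm38.p6.
miR-194-5p: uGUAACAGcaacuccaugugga
miR-194-2-3p: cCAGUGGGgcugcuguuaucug
miR-194-1-3p: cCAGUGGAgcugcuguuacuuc
miR-6926-5p: uCAGUGGGgugagggaugguga
miR-7055-5p: uCAGUGGGuuaucugaguugg
The 5p arm is the same in both hairpins, at chr1:185313325-185313346 in Mir194-1 and chr19:6264658-6264679 in Mir194-2, each on the plus strand. Its seed GUAACAG was shared with no other of the 1679 mature miRNA names in the RefSeq table, so an 8-mer target site reads CTGTTACA and a 7m8 site CTGTTAC. The 3p arms differ between the hairpins. That of Mir194-2, at chr19:6264694-6264715, shares the seed CAGUGGG with miR-6926-5p and miR-7055-5p, and the annotation holds these 3 as a single family, with the 8-mer site CCCACTGA. The 3p arm of Mir194-1, at chr1:185313360-185313381, has the seed CAGUGGA and is not part of that family, although its 7A1 site CCACTGA has the same letters. A 3p family peak is therefore assigned by sequence to several miRNAs.

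The pulldown libraries were unequal in depth. Reads in merged peaks numbered 148927, 723937 and 247358 in G12D libraries 1 to 3, against 100978, 54401 and 148770 in WT libraries 1 to 3, and 106 to 177 of the 5554 peaks had no read in a G12D library, against 1294 to 1854 in a WT library. Of the genes that mark colonocytes and goblet cells, 21 of 21 had a merged peak, and of those that mark stroma, muscle and blood, 0 of 24 had one.

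miR-194-5p was the second most abundant miRNA bound to Ago2 and was higher in G12D, by a margin that depended on the scaling. Its normalized reads were 22875, 33180 and 30335 in G12D miRNA libraries, against 19625, 24797 and 15668 in WT miRNA libraries. The lowest G12D library lay below the highest WT library, so the groups overlapped. The mean was 28797 ± 5322 in G12D and 20030 ± 4578 in WT (SD, n = 3 each), rank 2 of 459 miRNAs, with a log2 fold change of 0.53 (SE 0.18, adjusted p = 0.0339, limma). In this test 9.06% of the 254 miRNAs tested were higher in G12D and 6.69% were lower. As a share of all miRNA reads it was 4.95%, 6.41% and 6.46% in G12D, against 4.73%, 6.80% and 4.49% in WT. With every library set to the same total the log2 fold change was 0.17 (adjusted p = 0.483, limma), and the authors' deposited table gives 0.49 with an adjusted p of 0.216. Without G12D replicate 2, G12D replicate 3 or WT replicate 3 the adjusted p was 0.194, 0.140 or 0.184 (limma).

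The other arms were far less abundant. miR-194-1-3p had 54.8, 14.7 and 18.4 normalized reads in G12D, against 114, 73.5 and 60.6 in WT. All G12D libraries lay below all WT libraries, and the log2 fold change was -1.65 (SE 0.45, adjusted p = 0.01001, limma). Leaving out G12D replicate 2 gave -1.29 (adjusted p = 0.0543, limma), and without the variance trend the adjusted p was 0.0605 (limma). miR-194-2-3p had 486, 354 and 466 normalized reads in G12D, against 292, 481 and 334 in WT, groups that overlapped (log2 fold change 0.26, SE 0.32, adjusted p = 0.647, limma). The 5p arm and miR-194-1-3p were thus called in opposite directions in the main fit, and both calls were lost without the variance trend. The reads of the 5p arm over those of both 3p arms came to 42.3, 89.9 and 62.6 in G12D, against 48.4, 44.7 and 39.8 in WT. miR-192-5p, encoded beside Mir194-2, had a log2 fold change of 0.51 (adjusted p = 0.0491, limma), and miR-215-5p, encoded beside Mir194-1, had 0.11 (adjusted p = 0.793, limma). The libraries' miRNA table lists neither miR-6926-5p nor miR-7055-5p.

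Peaks with miR-194-5p sites lay in introns more often than those of any other of the 37 seed families with at least 50 peaks. Of the 337, 85 were in introns (25.2%, Wilson 95% interval 20.9 to 30.1), 147 in 3' UTRs (43.6%) and 78 in exons (23.1%), as the authors' classes name them. Among the 5042 annotated peaks without a miR-194 entry, 7.04% were in introns, 55.4% in 3' UTRs and 32.0% in exons. Of the 75 peaks of the 3p family, 5 were in introns (6.67%, interval 2.88 to 14.7) and 46 in 3' UTRs (61.3%). Read the other way, 19.2% of the 443 intron peaks carried a miR-194-5p site, against 4.93% of 3' UTR peaks and 4.56% of exon peaks. By number of peaks miR-194-5p ranked 3 of 75 families, after let-7 with 519 and the miR-200 family with 341. Its 85 intron peaks exceeded the 74 of let-7 and the 57 of the miR-200 family, whose intron shares were 14.3% and 16.7%. The miR-15/16 family, with 293 peaks, had 4.10% in introns. Peaks are not replicates, and these shares are descriptions of the merged list.

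**Figure D1:**
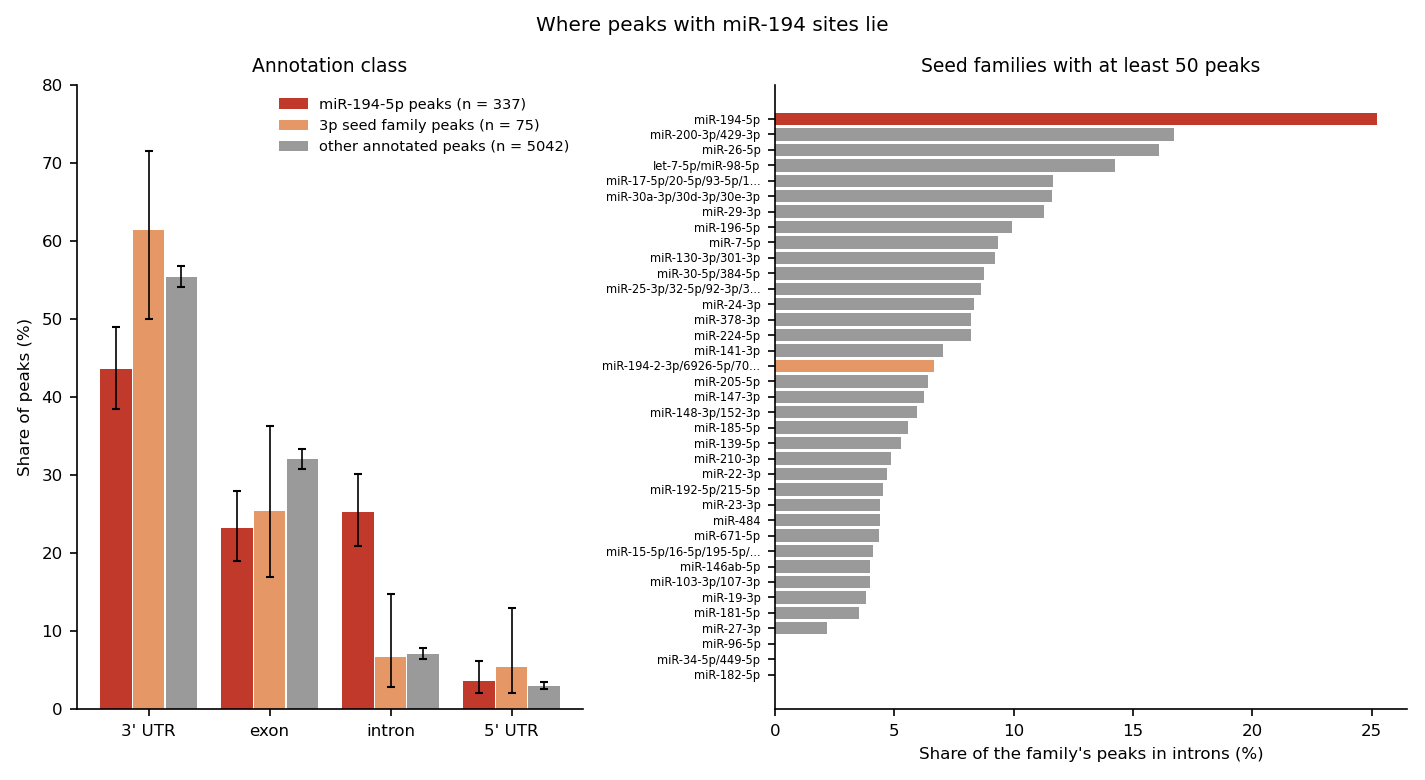
Left, share of peaks (percent, with Wilson 95% intervals) in each annotation class for miR-194-5p peaks, 3p seed family peaks and annotated peaks with neither. Right, share of peaks in introns for the 37 seed families with at least 50 peaks, with miR-194-5p at 25.2% and the 3p seed family at 6.67%.

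Intron peaks with miR-194 sites were found along the whole length of their genes. Of the 84 that could be placed, 25, 27, 19 and 13 lay in 4 successive parts of equal length counted from the 5′ end of the gene, and the median place was 39.6% along it. The 327 other intron peaks had a median place of 42.6%, with 100, 92, 75 and 60 in those parts. The host genes spanned a median of 114.7 kb, against 92.7 kb for the other intron peaks. The peaks were narrow, with a median width of 52.5 bases for intron peaks and 57 for 3' UTR peaks with miR-194 sites.

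Nearly all miR-194 peaks were found in the G12D list. The authors called 334 of the 406 in the G12D list alone, 60 in both lists and 12 in the WT list alone. All 88 intron peaks with miR-194 sites were called in the G12D list alone. Of all 275 tested intron peaks, with or without such a site, 219 were called there alone. Of the 60 shared peaks 38 were in 3' UTRs, 17 in exons and 5 in 5' UTRs. Over all annotated peaks 77.6% were in the G12D list alone and 7.36% in the WT list alone, against 82.3% and 2.96% of the miR-194 peaks. The greater depth of the G12D libraries goes in the same direction as these counts, and its part in them was not tested.

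Peaks with miR-194 sites held a larger share of the pulldown reads in every G12D library than in any WT library. Of the 406 peaks, 334 were called in the G12D list alone, which bears on the direction of this difference. The share was 6.52%, 8.38% and 6.95% in G12D, against 4.03%, 4.197% and 4.90% in WT, and averaged 7.28% ± 0.970 in G12D and 4.37% ± 0.462 in WT (SD, n = 3 each). The groups did not overlap, and the Wilson 95% intervals of the nearest libraries, which cover counting error only, ran from 6.40 to 6.65% in G12D replicate 1 and from 4.79 to 5.01% in WT replicate 3. Those in 3' UTRs held 3.68% in G12D and 2.58% in WT, while all 3' UTR peaks held 39.6% in G12D and 26.9% in WT. Those in exons held 2.14% in G12D and 1.43% in WT, while all exon peaks held 47.8% in G12D and 58.4% in WT. Those in introns held 0.804% ± 0.108 in G12D and 0.100% ± 0.0252 in WT (SD, n = 3 each), while all intron peaks held 3.65% in G12D and 1.84% in WT. For the 60 peaks called in both lists the shares overlapped, with 3.17%, 4.24% and 3.59% in G12D and 2.62%, 2.88% and 3.49% in WT.

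**Figure D2:**
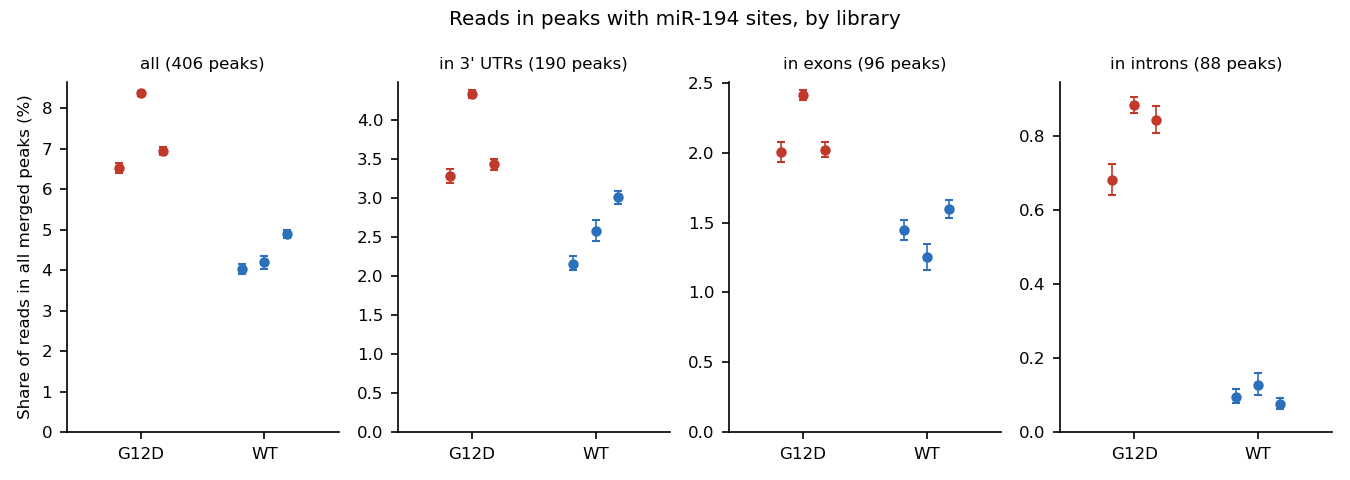
Share of the reads in all merged peaks (percent, axis from 0, scale differing between panels) held by miR-194 peaks in each pulldown library, for all 406 and for those in 3' UTRs, exons and introns. Points are libraries with Wilson 95% intervals, and in each panel the 3 G12D libraries lie above the 3 WT libraries. Of the 406 peaks, 334 were called in the G12D list alone, which bears on that direction.

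Most miR-194 peaks were low. The median peak had a mean of 12.4 normalized reads in G12D and 4.51 in WT, and the 8 highest held 22.7 to 27.3% of the reads of all 406 in G12D libraries and 31.6 to 36.7% in WT libraries. In each WT library 25.6 to 33.0% of the 406 had no read, against 0 to 0.493% in each G12D library. No miR-194 peak lacked reads in all G12D libraries, and 45 lacked them in all WT libraries, of which 26 were in introns. A test required an average of 5 or more normalized reads across libraries, which 328 of the 406 reached. All 78 that did not were in the G12D list alone, and 33 of them were in introns.

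Of the 328 tested miR-194 peaks, 140 were higher in G12D, 22 were lower and 166 were not called (limma, adjusted p below 0.05). Over all 4438 tested peaks, 36.2% were higher in G12D and 12.7% were lower, so that a positive change was common to the whole table. The median log2 fold change was 1.31 for the miR-194 peaks and 1.05 for all tested peaks. In 174 of the 328 all G12D libraries lay above all WT libraries and in 31 all lay below, where all peaks gave 43.9% and 15.2%. The split between higher and lower moved with the scaling and the model, which change together in the count tests. A same total per library gave 159 higher and 19 lower, quantile normalization called 91 higher and 36 lower, edgeR on recovered reads 102 and 42, and DESeq2 on recovered reads 107 and 35. The median of all peaks, 1.05 as deposited, was 0.16 under quantile normalization, 0.47 with edgeR and 0.66 with DESeq2, and the median of the miR-194 peaks stood above it by 0.26, 0.43, 0.26 and 0.32 in that order. By the authors' deposited table, 187 of the 406 were higher and 24 lower, where 37.9% and 11.6% of all its peaks were, and 156 were called both there and here, all in the same direction.

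**Figure D3:**
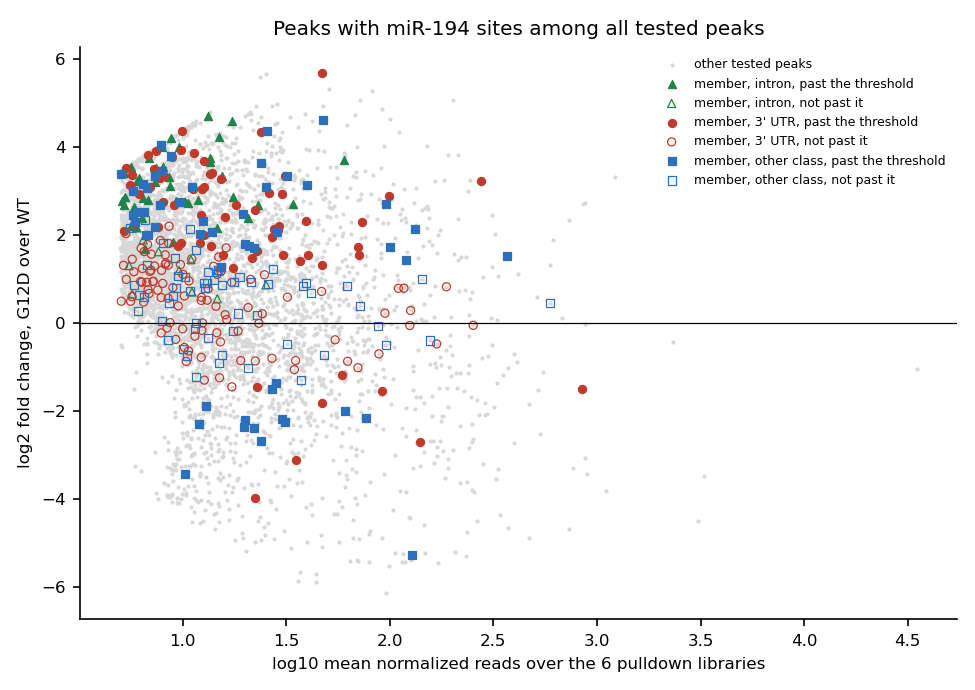
Log2 fold change, G12D over WT, against log10 mean normalized reads for the tested peaks, with miR-194 peaks marked by class and filled where past the threshold. Intron peaks with miR-194 sites lie above 0, with a median of 2.79, and were all called in the G12D list alone, while 3' UTR and other peaks lie on both sides.

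By class, the miR-194 peaks were near all peaks of their class in introns and 3' UTRs. In exons their median was the higher, but not among exon peaks called in the G12D list alone. In introns 44 of 55 tested miR-194 peaks were higher and 0 lower, with a median log2 fold change of 2.79, against 65.5% higher, 17.8% lower and a median of 2.70 over all 275 tested intron peaks. All 55 were called in the G12D list alone, and of the 219 tested intron peaks called there alone 82.2% were higher and 0 were lower. In 3' UTRs 58 of 165 were higher and 8 lower with a median of 1.17, against 37.7%, 6.81% and 1.23 over all 3' UTR peaks. In exons 27 of 83 were higher and 12 lower with a median of 0.93, against 28.7%, 18.6% and 0.61 over all exon peaks. Outside introns the median was 1.05 for the 273 tested miR-194 peaks and 1.00 for all such peaks. A peak called in the list of 1 genotype alone is one with signal there, which bears on its direction, so the next counts are descriptions. Of the 256 tested in the G12D list alone 128 were higher and 1 lower, where 47.0% and 0.663% of all such peaks were. Of the 12 in the WT list alone 0 were higher and 10 lower, where 0.676% and 74.3% of all such peaks were. Among the 60 in both lists 12 were higher and 11 lower, with a median of -0.13, where all such peaks gave 13.9% higher, 25.6% lower and a median of -0.45. In the G12D list alone, exon peaks had a median of 1.31 with a miR-194 site and 1.39 over all. For 3' UTR peaks of that list these medians were 1.36 and 1.62. In both lists they were -0.48 and -0.67 in exons and -0.13 and -0.28 in 3' UTRs.

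The highest miR-194 peak was in the 3' UTR of S100a14, a calcium-binding protein of epithelia, at chr3:90528179-90528230 on the plus strand, and was lower in G12D. This 7m8 peak had 290.1, 444 and 609 normalized reads in G12D, against 983, 1226 and 1514 in WT. Every G12D library lay below every WT library, and the log2 fold change was -1.51 (SE 0.40, adjusted p = 0.00915, limma). Without G12D replicate 1 it was -1.23 (adjusted p = 0.0779, limma). By the authors' score it ranked 11 of the 5109 merged peaks in the G12D list and 5 of the 1279 in the WT list. The opposite held for Dnajc5, a co-chaperone of secretory vesicles, whose 8-mer peak at chr2:181552371-181552439 on the plus strand is also in the 3' UTR. It had 454, 454 and 588 normalized reads in G12D, against 76.4, 49.3 and 37.4 in WT. No library of the groups came close to the other group, and the log2 fold change of 3.22 (SE 0.35, adjusted p = 1.4e-04, limma) was the highest among the miR-194 peaks called in both lists. A second, 7m8 peak of Dnajc5, in an intron, had 8.72, 9.08 and 5.03 normalized reads in G12D and no read in WT, and was too low to test.

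Changes in both directions were also seen among the 8-mer peaks in 3' UTRs that were called in both lists, of which there were 10. Gnai3 encodes an inhibitory G protein alpha subunit, and its peak at chr3:108108172-108108223 on the minus strand had 31.6, 44.4 and 20.1 normalized reads in G12D, against 318, 81.2 and 342 in WT. WT replicate 2 was nearest to G12D and still above it, and the log2 fold change was -2.72 (SE 0.53, adjusted p = 0.00184, limma). Gcnt3, an enzyme that branches mucin O-glycans, had 41.4, 52.4 and 39.5 in G12D, against 19.1, 5.796 and 25.8 in WT (log2 fold change 1.55, SE 0.52, adjusted p = 0.0287, limma). That call was lost with edgeR (0.79, adjusted p = 0.197), with DESeq2 (0.99, adjusted p = 0.123) and when any 1 of the G12D libraries, or WT replicate 2, was left out. The peaks of Lamp2, a lysosomal membrane protein, of C1galt1, which starts the extension of mucin O-glycans, and of a transcript known only by a clone name, at chr3:36947884-36947933, were not called, with log2 fold changes of -0.71, -0.39 and 0.28. For Lamp2 edgeR gave -1.27 (adjusted p = 0.0101) and DESeq2 -1.06 (adjusted p = 0.0182).

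**Figure D4:**
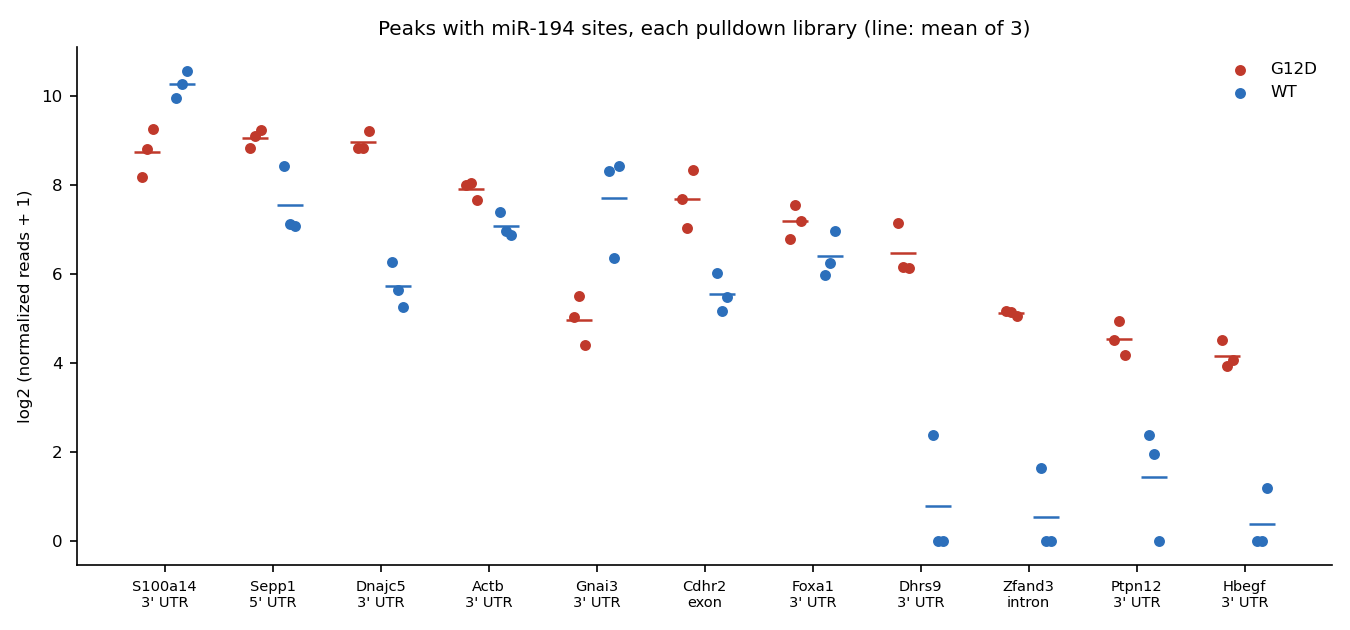
Log2 of normalized reads plus 1 in each G12D (left of each pair) and WT pulldown library for 11 miR-194 peaks ordered by mean, with a line at the mean of the 3 libraries. S100a14 and Gnai3 lie lower in G12D, Foxa1 overlaps, and the peaks from Dhrs9 rightwards have 0 to 4.25 normalized reads in WT.

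Several other abundant miR-194 peaks were not called. In the 3' UTR of Actb, encoding beta-actin, a 7m8 peak at chr5:142903760-142903811 had 255, 261 and 201 normalized reads in G12D, against 168, 125 and 116 in WT. G12D lay above WT throughout, but the log2 fold change of 0.82 (SE 0.32, adjusted p = 0.0534, limma) missed the threshold. It was called without WT replicate 1 (0.98, adjusted p = 0.0462, limma), at the same total per library (1.01, adjusted p = 0.0159, limma) and under quantile normalization (1.24, adjusted p = 0.00315, limma). Lipg, the endothelial lipase, had 191, 245 and 306 in its 3p family peak in G12D, against 208, 238 and 327 in WT, and the log2 fold change was -0.06. The 7A1 peak of the transcriptional corepressor Irf2bp2 and the 8-mer exon peak of the Golgi protein Trip11 were also not called, at -0.48 and -0.40, but edgeR called them lower (-1.003, adjusted p = 0.0351, and -1.08, adjusted p = 0.0296). Lypd8, a secreted colonocyte protein that keeps bacteria off the epithelium, held 2 exon peaks that were not called. The higher, a 3p family 7A1 peak at chr11:58382744-58382832, had 691, 586 and 753 in G12D, against 601, 371 and 550.3 in WT, groups that overlapped. Quantile normalization called it higher, at 1.10 (adjusted p = 5.4e-04, limma).

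In 5' UTRs 6 of 15 tested miR-194 peaks were higher and 2 lower, where 33.1% and 16.5% of all 5' UTR peaks were. Sepp1, selenoprotein P, which carries selenium to tissues, had 452, 544 and 603 normalized reads at its 7A1 peak, chr15:3274673-3274780, in G12D, against 342, 139 and 134 in WT. The groups did not overlap, with a log2 fold change of 1.51 (SE 0.41, adjusted p = 0.01003, limma), but without G12D replicate 3 the adjusted p was 0.0566 and with edgeR the log2 fold change was 0.84 (adjusted p = 0.0797). Nedd4, a ubiquitin ligase, was lower at its 7A1 peak, with 4.36, 9.28 and 6.46 in G12D, against 31.8, 34.8 and 33.5 in WT (log2 fold change -2.21, SE 0.48, adjusted p = 0.00310, limma).

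The largest positive changes were in peaks called in the G12D list alone, with almost no WT reads, where the ratio is poorly bounded. Being called in that list alone bears on the direction of a peak. Dhrs9, a retinol-oxidizing dehydrogenase, had the largest change, at a 7m8 peak in its 3' UTR, chr2:69402049-69402102, which also held a let-7 match. Its values were 139.6, 70.3 and 68.9 normalized reads in G12D, against 4.25, 0 and 0 in WT. WT replicate 1 alone held reads, the log2 fold change was 5.68 (SE 0.70, adjusted p = 2.4e-04, limma), and the pooled ratio was 62.8-fold with a counting interval of 17.3 to 520.2. All 5 other tested peaks of Dhrs9 were higher too. Lgals3bp, a secreted glycoprotein that binds galectins, had 145, 66.4 and 60.3 at a 3p family exon peak in G12D, against 10.6, 0 and 2.58 in WT (log2 fold change 4.61, SE 0.77, adjusted p = 7.7e-04, limma). Muc3, a membrane mucin, had 32.7, 74.1 and 40.9 normalized reads at a 3p family peak in G12D, against 2.12, 2.90 and 0 in WT. That peak is of the asterisked 5' UTR class, which the headers do not explain. Its log2 fold change was 4.36, which is 20.6-fold, and its pooled ratio, scaled for depth, was 49.6-fold with a counting interval of 13.7 to 411. Of 14 other tested peaks of Muc3, 12 were higher too. The sheddase Adam17, which releases growth factors and TNF from the cell surface, had 19.6, 23.9 and 15.8 at a 7A1 peak of its 3' UTR in G12D and no read in WT. It was at least 11.6-fold higher against a floor of 3 counts over the WT group (adjusted p = 2.8e-04, limma).

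In introns the positive changes were also set against few or no WT reads. All these intron peaks were called in the G12D list alone, where 82.2% of all tested intron peaks were higher and 0 lower. An 8-mer peak of Zfand3 at chr17:30062106-30062161 had 34.9, 34.7 and 32.3 normalized reads in G12D, against 2.12, 0 and 0 in WT, which is 245 reads and 1 read. G12D libraries were close to each other and far above WT (log2 fold change 4.58, SE 0.66, adjusted p = 3.8e-04, limma). At Trip12, a ubiquitin ligase, a 3p family peak held 238 reads in G12D and 0 in WT and was at least 17.6-fold higher. The 1 other tested peak of Trip12 was higher too. Gmds, an enzyme of GDP-fucose synthesis, had 142 reads in G12D and 0 in WT at an 8-mer peak, at least 10.5-fold higher, and Nckap1, a subunit of the WAVE actin regulator, 102 and 0 at a 7A1 peak, at least 7.56-fold higher. These folds are scaled for depth, and the read numbers are not. Acvr1b, an activin receptor, had 13.1, 11.8 and 10.8 at a 7m8 peak in G12D, against 0, 0 and 1.29 in WT (log2 fold change 3.28, SE 0.60, adjusted p = 0.00129, limma). The intron peak with the highest mean, in the actin regulator Twf1, was added after its values were seen. It had 77.4, 113 and 147 in G12D, against 10.6, 5.796 and 6.44 in WT (log2 fold change 3.71, SE 0.42, adjusted p = 1.8e-04, limma).

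The negative changes were led by peaks of the WT list. The most negative carries the label n-R5s90 Stac and a 3p family match, and had 6.54, 1.24 and 7.90 normalized reads in G12D, against 471, 113 and 165 in WT (log2 fold change -5.29, SE 0.63, adjusted p = 2.1e-04, limma). The label names a 5S ribosomal RNA copy with near-identical copies elsewhere, so its reads are of uncertain origin. Atxn1l, a partner of the repressor Capicua, had 0, 2.89 and 1.44 at a 7A1 peak of its 3' UTR, chr8:109731020-109731073, in G12D, against 34.0, 11.6 and 83.8 in WT. Groups were apart although WT libraries spread widely (log2 fold change -3.98, SE 0.80, adjusted p = 0.00220, limma). Abhd8 had 10 reads in G12D and 32 in WT at an 8-mer exon peak, a log2 fold change of -3.43 on the normalized scale. Arhgap12, a GTPase-activating protein, and Me2, the mitochondrial malic enzyme, were lower by log2 fold changes of -3.11 and -2.68 (adjusted p = 0.00101 and 0.00152, limma). Fcho2, which nucleates clathrin-coated pits, was in both lists and had 30.5, 55.9 and 43.8 in G12D, against 155, 63.8 and 199.8 in WT (log2 fold change -1.55, adjusted p = 0.0142, limma). Its call was lost without G12D replicate 1 or 3 or WT replicate 1 or 3, with adjusted p between 0.0541 and 0.0737 (limma).

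Of 21 genes listed from the literature as miR-194 targets, 5 held miR-194 peaks, 6 peaks in all, of which 2 were higher and 0 lower, against 3 higher and 0 lower of all 12 tested peaks of these genes. The 6 had a median log2 fold change of 1.72, beside 1.31 for all tested miR-194 peaks. All but the Foxa1 peak were called in the G12D list alone, which bears on their direction. Of all tested peaks called there alone, 47.0% were higher and 0.663% lower. Ptpn12, a tyrosine phosphatase, had 21.8, 29.7 and 17.2 normalized reads at an 8-mer peak of its 3' UTR, chr5:20987184-20987243, in G12D, against 4.25, 2.90 and 0 in WT. G12D lay above WT in every library, with a log2 fold change of 3.10 (SE 0.73, adjusted p = 0.00476, limma). Hbegf, a ligand of the EGF receptor, held a 7m8 and a 3p family peak in its 3' UTR. At the 7m8 peak it had 21.8, 14.2 and 15.8 in G12D, against 0, 0 and 1.29 in WT (log2 fold change 3.77, SE 0.63, adjusted p = 7.4e-04, limma), and at the 3p family peak the log2 fold change was 1.56 (adjusted p = 0.128, limma). Foxa1, a forkhead transcription factor of epithelia, had 110.2, 186 and 146 at a 7m8 peak of its 3' UTR, chr12:57541840-57541892, in G12D, against 61.6, 75.3 and 124 in WT. WT replicate 3 exceeded G12D replicate 1, and the log2 fold change of 0.78 (SE 0.37, adjusted p = 0.0970, limma) was not called. It was called without WT replicate 3 (1.07, adjusted p = 0.0402, limma), at the same total per library (0.98, adjusted p = 0.0437, limma) and under quantile normalization (0.95, adjusted p = 0.0375, limma). The intron peak of the DNA methyltransferase Dnmt3a gave 1.88 (adjusted p = 0.0676, limma), and 2.53 (adjusted p = 0.0140, limma) without WT replicate 2. The 8-mer 3' UTR peak of the kinase Akt2 gave 0.00 (SE 0.72).

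Among colonocyte and goblet cell genes 15 miR-194 peaks in 12 genes were tested, and 9 were higher and 0 lower, with a median log2 fold change of 2.07, against 97 higher and 21 lower of the 206 tested peaks of these genes, whose median was 1.40. Cdhr2, a protocadherin that links microvilli, had 205, 131 and 320 normalized reads at a 3p family exon peak in G12D, against 63.7, 34.8 and 43.8 in WT (log2 fold change 2.13, SE 0.40, adjusted p = 0.00151, limma). Outside the naming rule, 3 peaks were chosen after their values were seen. Vil1, the actin bundler villin, had 172, 193.5 and 161 at an 8-mer exon peak in G12D, against 72.2, 63.8 and 58.0 in WT (log2 fold change 1.43, adjusted p = 0.00328, limma). Krt20, a keratin of mature colonocytes, gave 3.67, and Cdh1, E-cadherin, gave 3.41 in an intron peak called in the G12D list alone. All 3 changes were positive and do not stand for the whole list, in which the Lypd8 peaks, at 0.44 and 0.38, were not called. Of the 8 peaks in junction and cytoskeleton genes 4 were higher and 0 lower, against 60 higher and 18 lower of the 146 tested peaks of these genes. Sptbn1, a spectrin, was not called at its 8-mer exon peak (log2 fold change 0.98, adjusted p = 0.0615, limma), but was called with each library set to the same total (1.18, adjusted p = 0.0238, limma).

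Signalling genes held few miR-194 peaks. In the RAS-MAPK list 2 of 3 were higher, at Hbegf and in an intron of Spred1, an inhibitor of RAS signalling, against 16 higher and 5 lower of all 40 tested peaks of that list. The Spred1 peak had 18.5, 13.6 and 14.4 normalized reads in G12D, against 0, 5.796 and 0 in WT (log2 fold change 3.11, SE 0.80, adjusted p = 0.00765, limma). In the WNT and stem cell list 3 of 5 tested were higher, against 19 higher and 1 lower of all 36 tested. The 3 were in Prom1, a protein of apical membrane protrusions. Its 8-mer 3' UTR peak, 7m8 exon peak and 7A1 intron peak had log2 fold changes of 2.31, 3.10 and 3.34 (adjusted p = 0.00670, 0.0102 and 0.00284, limma). The 3' UTR call was lost without G12D replicate 1 (adjusted p = 0.0524) and the exon call without G12D replicate 1 or 3 (0.0667 and 0.0721, limma). Each of these was set beside 7 other tested peaks of Prom1, the other miR-194 peaks included, of which 6 were higher. The Hbegf, Spred1 and Prom1 peaks were all called in the G12D list alone, which bears on their direction.

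Other lists held between 1 and 4 miR-194 peaks. The TGF-beta and BMP list held the Acvr1b peak alone, and of 3 peaks in the ubiquitin list only that of Nedd4 was high enough to test. Of the 2 in the list of small GTPases and their regulators the intron peak of Arhgap21 was higher (3.40, adjusted p = 0.00188, limma) and that of Arhgap12 lower, against 21 higher and 6 lower of all 51 tested. Of the 4 hormone and retinoid peaks 3 were higher, against 18 higher and 1 lower of all 29 tested, and Ncoa3, a nuclear receptor coactivator, was not called (-0.19). Ddx6, a helicase of P-bodies that acts in miRNA silencing, was the only RNA silencing gene on its list with a miR-194 peak. Its 8-mer peak in the 3' UTR had 45.8, 48.9 and 61.8 normalized reads in G12D, against 17.0, 2.90 and 3.87 in WT (log2 fold change 2.92, SE 0.59, adjusted p = 0.00215, limma). Of the 2 peaks in the cell cycle and apoptosis list, that of Cflar, an inhibitor of caspase activation, had a log2 fold change of 1.99 at a 3p family peak (adjusted p = 0.0230, limma). That call was lost under quantile normalization (1.14, adjusted p = 0.140, limma). It was also lost without G12D replicate 2 or 3 or WT replicate 3 (adjusted p between 0.0566 and 0.143, limma). The 3' UTR peak of Mdm4 was too low to test, with 9.8, 8.7 and 6.5 normalized reads in G12D, against 2.12, 0 and 0 in WT. Asap1, an Arf GTPase activator, had 3 miR-194 peaks, of which the 8-mer 3' UTR peak was not called (1.69, adjusted p = 0.0856, limma) and the 2 intron peaks were too low to test. The Acvr1b, Arhgap21, Ddx6 and Cflar peaks were called in the G12D list alone. Those of Nedd4 and Arhgap12 were called in the WT list alone. Being called in the list of 1 genotype alone bears on direction.

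To set peaks beside others of the same transcript, 196 miR-194 peaks were compared in each library with the mean of the other tested peaks of their gene. By this measure 31 were higher in G12D and 30 lower (limma, adjusted p below 0.05), where 12.5% and 15.8% of all 2965 such peaks were, and the median difference was 0.16 on the log2 scale against 0.09 for all. In introns 9 of 35 were higher and 0 lower, where 33.1% and 16.6% of all intron peaks were, with a median of 1.18 against 1.09. These 35 were all called in the G12D list alone. In 3' UTRs 13 of 102 were higher and 17 lower, where 10.7% and 11.6% of all 3' UTR peaks were. Of the 39 in both lists 3 were higher and 16 lower, where 2.51% and 40.2% of all such peaks were, with a median of -1.25 against -1.39. Being called in 1 list alone bears on direction here too. Of the 149 in the G12D list alone 28 were higher and 7 lower, where 16.2% and 4.87% of all such peaks were. Of the 8 in the WT list alone 0 were higher and 7 lower, where 1.74% and 60% of all such peaks were. Leaving out G12D replicate 1, 2 or 3 lowered the number higher to 15, 14 or 16, and leaving out G12D replicate 2 lowered the number lower to 19.

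Within their genes, S100a14 and Dnajc5 again stood on opposite sides. The S100a14 peak fell by 4.08 on the log2 scale against 5 other peaks (SE 0.50, adjusted p = 5.9e-04, limma), of which 4 were themselves higher in G12D and 0 lower. The 3' UTR peak of Dnajc5 was higher by 4.18 against 2 others (SE 0.53, adjusted p = 6.2e-04, limma), 1 of which was lower. The most negative differences were at Atxn1l (-7.01, 2 other peaks, both higher), Fcho2 (-5.04, 1 other peak, higher) and Me2 (-4.92, 1 other peak, higher), with adjusted p of 4.5e-04, 4.5e-04 and 0.00198 (limma). The most positive were intron peaks, at Gmds (7.54, 3 other peaks, 2 of them lower), Nckap1 (5.89, 1 other peak, lower) and Far1, an enzyme of ether lipid synthesis (4.28, 1 other peak, not called), with adjusted p of 4.5e-04, 0.00176 and 0.00124 (limma). The Gmds, Nckap1 and Far1 peaks were called in the G12D list alone, and those of Atxn1l and Me2 in the WT list alone. That bears on the direction of these differences. Lipg and Lamp2, not called on their own, fell by 2.26 and 3.44 relative to other peaks (adjusted p = 0.00351 and 0.00310, limma), of which 4 of 5 were higher in Lipg and 1 of 1 in Lamp2. For Prom1 and Sepp1, the difference from the gene's other peaks was not called. The same held for Muc3 (1.38, adjusted p = 0.141, limma) and Trip12 (0.84, adjusted p = 0.264, limma). Of the other largest positive changes, the peaks of Dhrs9, Lgals3bp, Zfand3 and Adam17 were called higher than their gene's other peaks. All of these from Muc3 on were called in the G12D list alone.

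**Figure D5:**
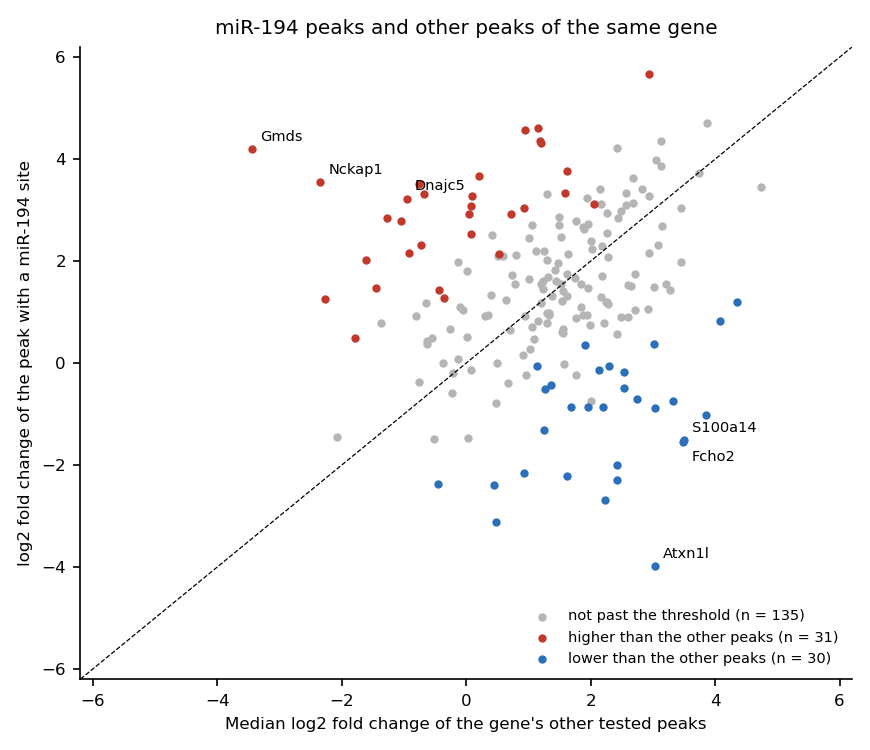
Log2 fold change, G12D over WT, of 196 miR-194 peaks (vertical) against the median of the other tested peaks of the same gene (horizontal), with the line of equality. The 31 points called higher lie above the line and the 30 called lower lie below it, with Gmds, Nckap1 and Dnajc5 at the upper left and S100a14, Fcho2 and Atxn1l at the lower right. The Gmds and Nckap1 peaks were called in the G12D list alone and that of Atxn1l in the WT list alone.

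Of the site types of miR-194-5p, the 8-mer had the highest median change. Of the 337 peaks 126 had an 8-mer entry, 147 a 7m8 and 64 a 7A1 as the longest. Among those tested, 58 of 108 with an 8-mer were higher and 6 lower (median log2 fold change 1.73), 43 of 108 with a 7m8 were higher and 10 lower (1.23), and 19 of 53 with a 7A1 were higher and 5 lower (0.92). Class moves with site type, since 8-mers made up 44.7% of the miR-194-5p entries in introns, 34.7% in 3' UTRs and 34.6% in exons. Within 3' UTRs 21 of 47 tested 8-mer peaks were higher and 1 lower, with a median of 1.48. Within introns 23 of 28 were higher and 0 lower, with a median of 2.73. Within exons 9 of 25 were higher and 5 lower, with a median of 0.98. All tested miR-194 peaks had medians of 1.17 in 3' UTRs, 2.79 in introns and 0.93 in exons. Changes at the other site types were not split by class. The 8-mer share of 37.4% lay between those of let-7 (50.7%) and miR-15/16 (28.3%). No difference between site types was tested, since peaks are not replicates.

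Another miRNA family had a match in 160 of the 337 miR-194-5p peaks (47.5%), the 3p family included. The same share was 47.8% for peaks of the miR-200 family, 55.7% for let-7 and 59.4% for miR-15/16. Most frequent were miR-15/16 with 15 peaks, miR-141 and the miR-200 family with 13 each, miR-30-3p with 11 and let-7 with 8. The shares of miR-15/16 and the miR-200 family, 4.45% and 3.86%, lay below their 5.44% and 6.42% in the other annotated peaks. Those of miR-141 and miR-30-3p, 3.86% and 3.26%, lay above their 2.52% and 1.135%. Let-7 matches stood in 2.37% of miR-194-5p peaks and in 9.998% of the other annotated peaks. Among the peaks named above, those of Dhrs9, Lgals3bp, Trip12, Cdhr2, Fcho2 and Dnmt3a also held a let-7 match. Those of Gnai3, Ptpn12 and Akt2 held a miR-200 family match, and those of Ddx6 and Acvr1b a miR-15/16 match. Further named peaks held matches to other families. Binding at such peaks cannot be assigned to miR-194 alone. Of the 145 tested peaks with miR-194-5p alone 68 were higher and 9 lower (median log2 fold change 1.54), and of the 124 with another family 52 were higher and 12 lower (1.24). By comparison, 154 of 434 tested let-7 peaks were higher and 50 lower (median 0.88), and 111 of 267 peaks of the miR-200 family were higher and 24 lower (1.245). The family of miR-192-5p and miR-215-5p, encoded beside miR-194, had 66 peaks, of which 15 of 60 tested were higher and 11 lower (0.43).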

How the data were processed

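Pulldown mRNA and miRNA libraries of G12D and WT mice were analysed, 3 of each kind per group, and the 6 input controls were not. The submitters' processing notes name STAR 2.5.2b, DESeq2 with mm10 and GRCm38 as builds. How peaks were called and counted, and whether libraries were pooled for it, is not given in the sources used here. The deposited normalized values are a signal, reads divided by 1 factor per library by the authors, and 100% of values came out as whole reads within 0.01. With those reads the count tests edgeR called 102 miR-194 peaks higher and 42 lower and DESeq2 107 and 35. Per the file headers, the authors' deposited tables hold log2 fold changes, their errors, p-values and adjusted values. Classes, gene labels and seed matches were deposited by the authors, whose score per peak was used for ranks within a list only. Coordinates are GRCm38, counted from 1.

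limma (3.58.1, R 4.3.3) with a variance trend was fitted to log2(normalized reads + 1), a scale that understates changes of low values, over all peaks with a mean of at least 5 and all miRNAs with a mean of at least 10, with Benjamini-Hochberg adjustment and a threshold of 0.05. A second fit used the peak minus the mean of the other tested peaks of its gene label. Pooled ratios carry 95% counting intervals, which cover counting error only. They sum reads over a group before scaling, so the deepest library weighs most. In G12D that is replicate 2, with a factor of 4.85 against 0.917 and 1.39 for replicates 1 and 3. A group without reads was set to 3 counts over the group. The fits were tested on simulated data. Deviations of same-numbered libraries of the groups correlated at 0.04, -0.04 and -0.01. No shared deviation was seen, which cannot settle whether these libraries were paired, and no pairing was used in the main fits.

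The miR-194 peaks, the gene lists and the naming rule were chosen with earlier results of these data known. The rule took the 8 peaks with the highest mean, the 6 largest called changes without overlap in each direction, up to 2 peaks per gene list, the 4 genes with most miR-194 peaks, the 6 highest of the 8-mer 3' UTR peaks in both lists, all peaks in listed miR-194 targets, and the 3 largest within-gene changes in each direction. Alternatives covered pseudocount, filter, scaling, variance trend, replicate block, left-out libraries, site type, lists, edgeR 4.0.16 and DESeq2 1.42.0. A further peak that the rule named is not reported here. Target-site sequences are not shown, as no genome was used here.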

Additional observations from a re-analysis of the deposited data

How the results depend on the processing

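Against 140 miR-194 peaks higher and 22 lower in G12D, the same total per library gave 159 and 19, no filter 208 and 24, quantile normalization 91 and 36, edgeR 102 and 42, and DESeq2 107 and 35. A mean of at least 20 left 101 peaks with 41 higher, 8-mer entries alone gave 61 and 6 of 117, peaks in both lists 12 and 11 of 60, and intron peaks, added after the data were seen, 44 and 0 of 55. Leaving out 1 library gave 91 (without G12D replicate 3) to 146 higher and 15 to 27 lower. The median log2 fold change, 1.31, was 0.59 under quantile normalization, -0.13 for peaks in both lists and 2.79 in introns, and 1.24 to 1.47 with 1 library left out. The log2 fold change of miR-194-5p, 0.53, lost its call at the same total per library (0.17), under quantile normalization (0.013), without the variance trend (0.53), with edgeR (0.32) and with DESeq2 (0.47), and ranged from 0.37 to 0.70 with 1 library left out. Against the other peaks of the gene, 31 higher and 30 lower became 14 and 9 of 46 at a mean of at least 20, and 14 to 36 and 19 to 38 with 1 library left out. The labels do not say whether same-numbered libraries pair, and a replicate block gave 143 higher and 24 lower. The cause of these shifts was not tested, apart from the smaller numbers of peaks or libraries in those settings. Uncalled values that changed sign were miR-194-2-3p (-0.10, same total), the Lypd8 peaks (-0.12 and -0.17, edgeR), Lipg (0.14, same total; 0.42, quantile normalization; -0.23 to 0.13, 1 library left out), the clone-named transcript on chromosome 3 (-0.45, edgeR; -0.24, DESeq2; -0.30 to 0.58, with -0.0013 without G12D replicate 3, 1 library left out) and Akt2 (-0.026, pseudocount 0.5; -0.96, quantile normalization; -0.29, edgeR; -0.12, DESeq2; -0.38 to 0.72, 1 library left out). Of the values for single peaks and arms under alternatives, 733 kept direction and call, 23 lost and 18 gained a call, and 19 changed sign. Where 3 or fewer WT reads lie under a ratio, depth limits its size.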
